A study of Saccharomyces cerevisiae with 8 samples.

Results

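DAN1, DAN4, TIR1, TIR2, TIR3 and TIR4 encode the anaerobic mannoproteins of the yeast cell wall, and their RNA was followed across 4 strains of Saccharomyces cerevisiae. They were chosen by name: a probe set was taken if the platform annotation gave it exactly 1 of these genes, and each of the 6 genes had 1 such probe set among the 9275 on the array that are not controls, which name 5656 genes. Their systematic names are YJR150C, YJR151C, YER011W, YOR010C, YIL011W and YOR009W, in the order given. The strains were one with the not1-2 allele, one with the spt3 mutation, the not1-2 spt3 double mutant and the wild-type reference, with 2 arrays each. NOT1 (CDC39) encodes the large scaffold protein that holds Ccr4-Not together, a complex that acts in transcription and in mRNA decay. SPT3 encodes a SAGA component through which this coactivator meets the TATA-binding protein. All cultures had 24 h of growth at 30°C in rich glucose medium, were shifted at an optical density of 0.2 to 37.5°C, which is restrictive for not1-2, and were harvested at 0.8. The sources used here state neither what the not1-2 allele alters nor how the cultures were aerated.

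The DAN (delayed anaerobic) and TIR (TIP1-related) proteins are serine-rich mannoproteins that carry a GPI lipid anchor as precursors and are then joined to the glucan of the wall through what is left of it. Yeast makes them when oxygen is scarce, when they take the place of the wall proteins Cwp1 and Cwp2. Their genes are repressed in the presence of heme and oxygen through Rox1, Mot3 and the Tup1-Cyc8 corepressor, and the zinc-cluster factor Upc2 activates them and the genes of sterol uptake. TIR1 and TIR2 also respond to cold shock, and TIR1, TIR3 and TIR4 are each needed for growth without oxygen.

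The values are signals of an Affymetrix array, scaled here to a common array median, and "difference" means a difference of mean log2 signal. The replicate 1 arrays stood apart from the replicate 2 arrays. Signal at the 3' end of ACT1 over that at its 5' end, a ratio that rises as RNA is cut or copied incompletely, was 36.8 in not1-2, 5.83 in spt3, 12.2 in the double mutant and 199 in wild type on replicate 1, and between 1.79 and 2.10 on replicate 2. Arrays with the same number also departed from their strain means in the same way, so each result is given with the replicate number as a block (the blocked fit) where that changes a call. SPT3 was at the floor of 1.72 on the 4 arrays labelled spt3 or not1-2 spt3, and between 15.5 and 29.9 on the others. The strains also differ in marker and mating-type expression. TRP1 was between 36.0 and 56.2 in the strains without SPT3 and at the floor in not1-2 and wild type. The a-factor gene MFA2 was between 7.44 and 18.0 in the 3 mutants and at 4972 and 1448 in wild type. The alpha-factor gene MF(ALPHA)1 went the other way, between 534 and 1617 in the 3 mutants and at 14.9 and 17.1 in wild type. In comparisons with wild type the difference in mating-type expression cannot be told apart from the mutations. Nor can the TRP1 difference in comparisons of strains without and with SPT3. On the 4 arrays of the double mutant and not1-2 MFA2 lay between 11.5 and 18.0 with overlap. A lower signal of a bulk culture likewise cannot separate fewer expressing cells from less RNA per cell.

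**Figure D1:**
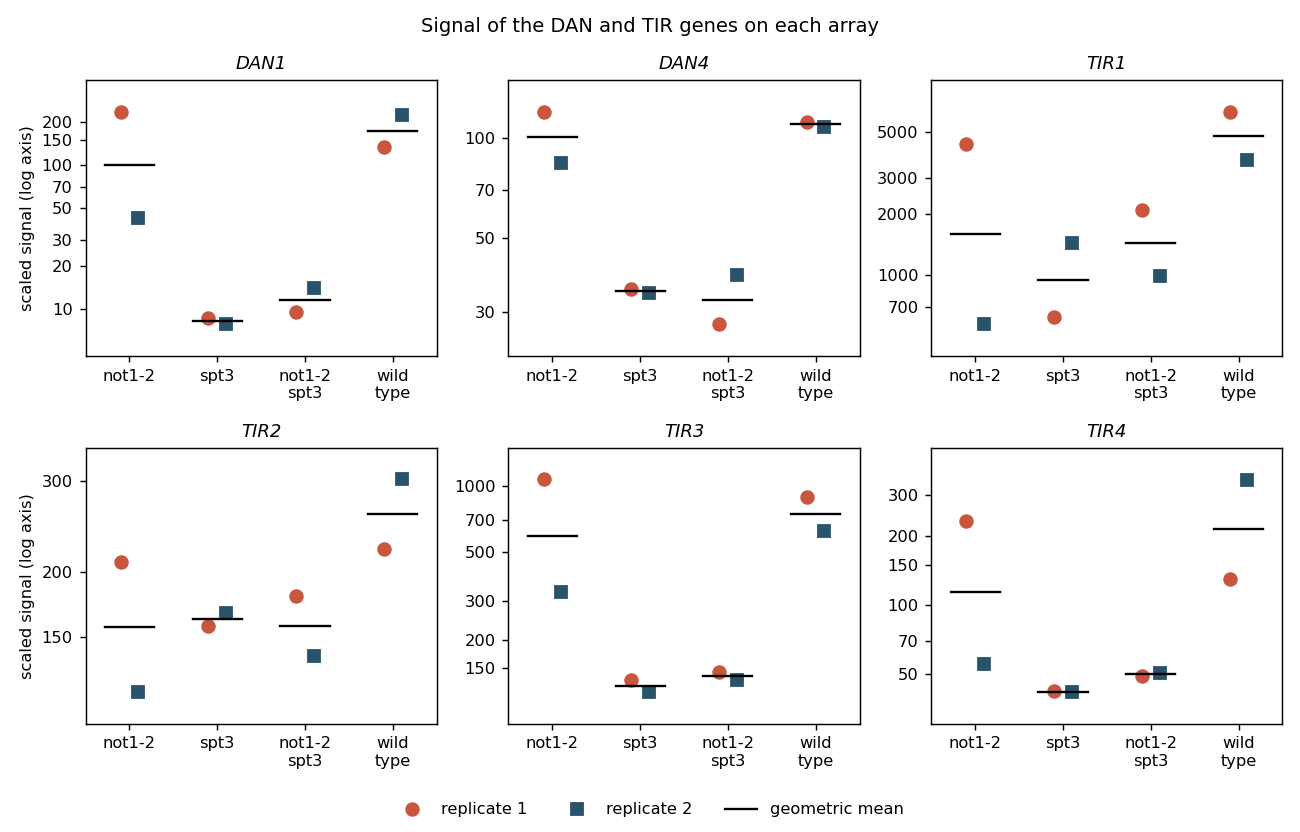
Scaled signal of each of the 6 genes on each of the 8 arrays (log axis, its range set per gene), with circles for replicate 1, squares for replicate 2 and a bar at the geometric mean of the 2 arrays. DAN1, DAN4, TIR3 and TIR4 lie lower on all 4 arrays of the strains without SPT3 than on the 4 arrays of not1-2 and wild type, and the 2 not1-2 arrays lie 1.43-fold (DAN4) to 7.57-fold (TIR1) apart, replicate 1 the higher in all 6.

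DAN1, which is nearly silent in aerated cells, had signals of 8.62 and 7.84 in spt3, against 133 and 222 in wild type. It fell by 4.39 ± 0.66 on the log2 scale (blocked SE, 2 against 2 arrays) at a limma adjusted p of 0.0367 with the replicate block and 0.214 without it. Both wild-type arrays lay well above both spt3 arrays, and within the replicate pairs the difference was -3.95 and -4.83. The 4 arrays without SPT3 held its lowest signals of the series. Its spt3 signals, and those of 9.54 and 14.0 in the double mutant, lay within the 7.44 to 18.0 that MFA2 read in the mutants. They are not shown to be above background, so the DAN1 differences over them have an uncertain size and are given without folds. The array table holds no detection calls, and none of the 48 signals of the 6 genes was at the floor.

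TIR3, a wall protein needed for anaerobic growth, followed DAN1. Its signals were 132 and 116 in spt3 and 884 and 622 in wild type. It fell by 2.58 ± 0.40 (blocked SE), or 5.99-fold, at adjusted p = 0.0367 with the block and 0.429 without it. The strains did not overlap, and the replicate pairs differed by -2.75 and -2.42, a narrow range beside the size of the difference.

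DAN4, the neighbour of DAN1 on its chromosome, had signals of 35.3 and 34.2 in spt3, against 112 and 108 in wild type. The difference of -1.66 ± 0.33 (blocked SE) was nearly the same in both replicate pairs, at -1.67 and -1.66, and missed the threshold with a blocked adjusted p of 0.0654. TIR4 had 42.2 and 41.9 in spt3 and 130 and 351 in wild type. Its difference was -2.34 ± 0.66 (blocked adjusted p = 0.140), and it was the wild-type arrays that lay apart, not those of spt3. Neither gene overlapped between the strains.

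TIR1 and TIR2, the cold-shock members, were the least clear. TIR1 had signals of 627 and 1435 in spt3, against 6295 and 3651 in wild type, a difference of -2.34 ± 0.71 (blocked adjusted p = 0.159) with replicate pairs at -3.33 and -1.35. TIR2 had 158 and 167 in spt3 and 222 and 302 in wild type, a difference of -0.67 ± 0.36 (blocked adjusted p = 0.349) whose 95% interval ran from -1.48 to 0.14. Both genes were lower on both spt3 arrays; the gap of TIR1 varied between the pairs, and that of TIR2 was the smallest of the 6.

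With the spread of the arrays in view, 6 of 6 genes lay lower in spt3 than in wild type without overlap of arrays, against 15.9% of all probe sets tested, and 2 passed with the block, against 0.398% of all probe sets called lower. The median difference was -2.34 over the 6 genes and -0.02 over all 7043 probe sets. Without the block 5 of the 6 were at an unadjusted p under 0.05, against 388 of all 7043 probe sets in either direction. In that fit limma called 0 of the 6, and 0.0284% of all probe sets lower. DAN1 passed without the block when either not1-2 array was left out and in a fit of the 2 strains alone. The blocked count of 2 was 0 without wild-type replicate 1, wild-type replicate 2 or spt3 replicate 1, 1 without double-mutant replicate 1 and 4 without spt3 replicate 2, when DAN4 and TIR1 were called as well. With the ACT1 ratio as a covariate beside the block, an alternative chosen after seeing the data, DAN1 was at -4.58 ± 0.99 and TIR3 at -2.31 ± 0.54, at adjusted p of 0.476 and 0.518. Under quantile normalization with the block none passed.

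**Figure D2:**
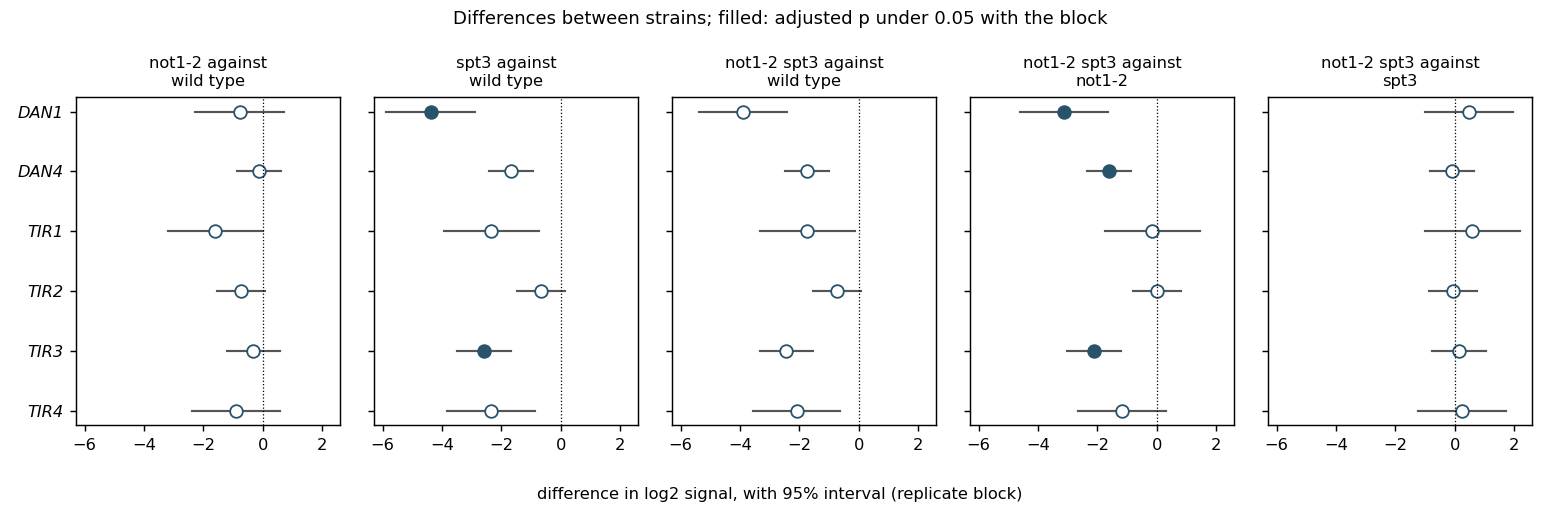
Difference in mean log2 signal for each gene in the 5 comparisons between strains, with the 95% interval of the blocked fit; filled points passed at an adjusted p under 0.05 with the block. DAN1 and TIR3 pass in spt3 against wild type (-4.39 and -2.58), DAN1, DAN4 and TIR3 pass in the double mutant against not1-2 (-3.12, -1.62 and -2.11), and no gene passes in the other 3 comparisons.

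Loss of SPT3 in cells that carry not1-2 gave a second comparison, with other arrays. DAN1 had signals of 9.54 and 14.0 in the double mutant, against 235 and 42.9 in not1-2, and fell by 3.12 ± 0.66 (blocked SE, adjusted p = 0.0485). TIR3 had 143 and 131 in the double mutant and 1066 and 330 in not1-2, and fell by 2.11 ± 0.40 (adjusted p = 0.0379). DAN4 had 27.6 and 38.8 in the double mutant and 120 and 84.2 in not1-2, and fell by 1.62 ± 0.33 (adjusted p = 0.0458). The 3 genes kept apart on every array, though the fall was larger on replicate 1 (-4.62, -2.89 and -2.12 for DAN1, TIR3 and DAN4) than on replicate 2 (-1.62, -1.33 and -1.12).

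The other 3 genes did not pass in the same comparison. TIR4 had signals of 49.1 and 50.8 in the double mutant and 232 and 55.3 in not1-2, so the arrays stayed apart but by a small margin on replicate 2, and the difference was -1.18 ± 0.66 (blocked adjusted p = 0.380). TIR1 had 2076 and 995 in the double mutant and 4382 and 579 in not1-2, with a difference of -0.15 and a blocked 95% interval from -1.75 to 1.45. TIR2 had 180 and 138 in the double mutant and 209 and 117 in not1-2, with a difference of 0.01 and an interval from -0.80 to 0.82. For these last genes the not1-2 arrays lay on either side of those of the double mutant.

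With the block 3 of the 6 genes were called lower in the double mutant, against 2.07% of all probe sets, and 4 of 6 did not overlap, against 18% of all probe sets. Without the block 3 of the 6 were at an unadjusted p under 0.05, against 536 of all 7043 probe sets in either direction. In that fit limma called 0 of the 6, and 0.0142% of all probe sets lower. DAN1, TIR3 and DAN4 were then at adjusted p of 0.302, 0.394 and 0.239. The blocked count of 3 was 0 without not1-2 replicate 1, without either double-mutant array or without either wild-type array, and 1, DAN1, without not1-2 replicate 2. With that covariate the 3 genes were at -3.19, -2.02 and -1.57, at adjusted p between 0.0671 and 0.0846. Under quantile normalization with the block DAN4 and TIR3 still passed.

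Over both NOT1 alleles together, 4 arrays without SPT3 were set against 4 with it. DAN1 fell by 3.75 ± 0.47 (blocked SE), TIR3 by 2.35 ± 0.28, or 5.09-fold, and DAN4 by 1.64 ± 0.23, or 3.12-fold, at blocked adjusted p of 0.00579, 0.00542 and 0.00742. TIR4 differed by -1.76 ± 0.46 (blocked adjusted p = 0.0593), TIR1 by -1.24 ± 0.50 (0.171) and TIR2 by -0.33 ± 0.25 (0.451). DAN1, DAN4, TIR3 and TIR4 did not overlap between the 4 arrays without and the 4 with SPT3, which held for 3.42% of all probe sets in this direction. The 3 calls stand beside 5.18% of all probe sets called lower.

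The blocked count of 3 became 2 without not1-2 replicate 1, when DAN4 no longer passed, and 4 without not1-2 replicate 2 (TIR4 added) or spt3 replicate 2 (TIR1 added), and stayed at 3 without any other array. DAN1, at between -3.04 and -4.46, and TIR3, at between -1.99 and -2.70, passed in every blocked fit with an array left out. Without the block 4 of the 6 were at an unadjusted p under 0.05, against 737 of all 7043 probe sets in either direction. In that fit limma called none of the 6, with DAN1 at an adjusted p of 0.0509, against 0.0852% of all probe sets called lower. That count was 2, DAN1 and TIR3, without not1-2 replicate 2. With the ACT1 covariate none passed, with DAN1 at -3.89 ± 0.68, TIR3 at -2.17 ± 0.38 and DAN4 at -1.55 ± 0.31, at adjusted p of 0.0893, 0.0893 and 0.111. That fit has fewer residual degrees of freedom.

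The double mutant set against wild type asks what both mutations together left of these genes. DAN1 differed by -3.90 ± 0.66 (blocked SE, adjusted p = 0.0550), TIR3 by -2.43 ± 0.40 (0.0550) and DAN4 by -1.75 ± 0.33 (0.0686), just outside the threshold. TIR4 was at -2.10 ± 0.66, TIR1 at -1.74 ± 0.71 and TIR2 at -0.72 ± 0.36, with blocked adjusted p between 0.195 and 0.389. All 6 genes lay lower on both double-mutant arrays than on both wild-type arrays, against 12.5% of all probe sets. The replicate pairs had medians of -1.81 and -2.06 over the 6 genes. With and without the block 5 and 4 of the 6 were at an unadjusted p under 0.05. Of all 7043 probe sets 1038 and 303 were, in either direction. Limma called 0 of 6 in both fits, and 0.156% and 0.0426% of all probe sets lower. The blocked count was 3 (DAN1, DAN4 and TIR3) without either spt3 array and 1 (DAN1) without either not1-2 array. This comparison shares its wild-type arrays with that of spt3, and DAN1 was at -3.90 in the double mutant and -4.39 in spt3, and TIR3 at -2.43 and -2.58.

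The double mutant set against spt3 asks about the not1-2 allele in cells without SPT3. Against spt3 the double mutant was at 0.49 for DAN1, -0.09 for DAN4, 0.60 for TIR1, -0.04 for TIR2, 0.15 for TIR3 and 0.25 for TIR4, none past limma's test, and none of the 6 had an unadjusted p under 0.05. DAN1, at 9.54 and 14.0 in the double mutant and 8.62 and 7.84 in spt3, and TIR4, at 49.1 and 50.8 against 42.2 and 41.9, did not overlap, against 5.44% of all probe sets that were higher without overlap. The DAN1 signals of both strains are not shown to be above background. In this comparison 0% of all probe sets passed in either fit, so the count of 0 among the 6 genes is that of the background. The replicate pairs of TIR1 had opposite signs, at 1.73 and -0.53. The blocked 95% intervals were wide, with upper ends at 2.20 for TIR1 and 1.98 for DAN1, and ran from -0.75 to 1.05 for TIR3 and from -0.82 to 0.65 for DAN4, so these arrays do not show that the 2 strains are alike.

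In cells with SPT3 the not1-2 allele gave no call, and its arrays disagreed. Every gene was lower on not1-2 replicate 2 than on replicate 1: DAN1 was at 42.9 and 235, a 5.48-fold gap, TIR1 at 579 and 4382 (7.57-fold), TIR4 at 55.3 and 232 (4.20-fold) and TIR3 at 330 and 1066 (3.23-fold). DAN4 and TIR2 had smaller gaps of 1.43-fold and 1.78-fold. In the other strains the 6 genes had no common direction between replicates: replicate 1 was the higher in 4 of 6 genes in spt3, 3 of 6 in the double mutant and 3 of 6 in wild type. The ACT1 ratio was 36.8 on not1-2 replicate 1 and 2.10 on replicate 2; its part in the gap was not tested.

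**Figure D3:**
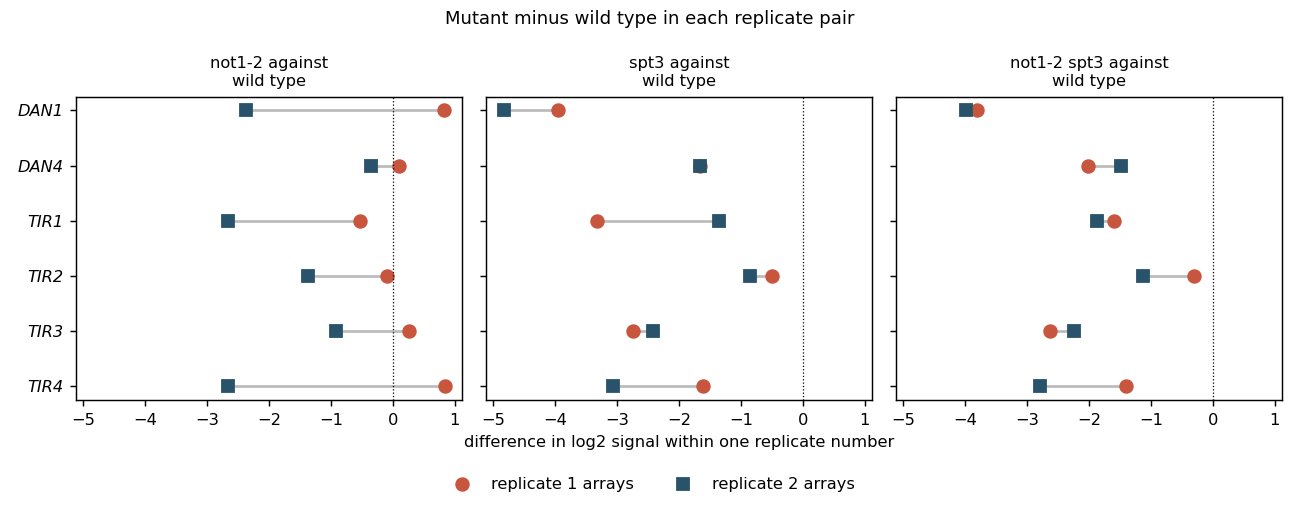
Mutant minus wild type in log2 signal within replicate 1 (circles) and within replicate 2 (squares), for each gene and mutant. In not1-2 the pairs split, with DAN1 at 0.82 and -2.37 and TIR4 at 0.84 and -2.67, while in spt3 and the double mutant all 24 values lie below 0.

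Against wild type the 6 genes had a median difference of 0.18 on replicate 1 and -1.87 on replicate 2. DAN1, DAN4, TIR3 and TIR4 had opposite signs on the 2 pairs, from 0.10 to 0.84 on replicate 1 and from -0.36 to -2.67 on replicate 2. TIR1 (-0.52 and -2.66) and TIR2 (-0.09 and -1.36) were lower on both. The mean differences were -1.59 for TIR1, -0.91 for TIR4, -0.78 for DAN1, -0.72 for TIR2, -0.32 for TIR3 and -0.13 for DAN4. None passed, at blocked adjusted p between 0.281 and 0.873, where 0.951% of all probe sets were called lower with the block and 0.0284% without it. TIR2 alone had both not1-2 arrays below both wild-type arrays, against 17.3% of all probe sets. None of the 6 had an unadjusted p under 0.05 in either fit, against 1262 of all 7043 probe sets with the block and 540 without it. For DAN4, the blocked 95% interval of -0.87 to 0.61 was the narrowest of the 6. Without not1-2 replicate 2 DAN1, DAN4, TIR3 and TIR4 turned to values above 0, from 0.19 to 0.64 with the block.

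Whether the SPT3 difference was the same with and without not1-2 was tested as an interaction. Its estimate, the difference in not1-2 cells minus that in NOT1 cells, was 2.19 for TIR1, 1.27 ± 0.93 (blocked SE) for DAN1, 1.16 ± 0.93 for TIR4, 0.68 ± 0.51 for TIR2, 0.47 ± 0.56 for TIR3 and 0.04 ± 0.46 for DAN4. None passed in limma, with blocked adjusted p of 0.506 for TIR1 and at least 0.692 for the others, none had an unadjusted p under 0.05, and of all probe sets 0.0426% were called higher with the block and 0% without it. TIR1 gave 2.25 and 2.13 in the 2 replicate sets, and the other 5 genes differed more between the sets, with DAN1 at -0.68 and 3.21. The intervals are wide, from -0.07 to 4.45 for TIR1, so these arrays do not show that the genes respond alike in both backgrounds.

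The order of the strains was wild type, not1-2, double mutant, spt3 from high to low for DAN1, TIR1, TIR3 and TIR4. DAN4 had spt3 just above the double mutant, by 0.09, and TIR2 had not1-2 lowest, the double mutant 0.01 above it and spt3 0.04 above that. Of the steps between neighbours in these orders, those from the double mutant up to not1-2 passed the blocked test for DAN1 and TIR3; the step between spt3 and not1-2 was not tested, and the others did not pass. Across the 8 arrays DAN1 ran from 7.84, which is not shown to be above background, to 235. TIR1 spanned 10.9-fold, TIR3 9.15-fold, TIR4 8.39-fold, DAN4 4.35-fold and TIR2 2.57-fold.

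The 6 genes followed each other to different degrees over the 8 arrays, which share 4 strains and 2 replicate numbers. Pearson's r was 0.97 between DAN1 and TIR3, 0.97 between DAN1 and DAN4, 0.96 between DAN4 and TIR3 and 0.94 between DAN1 and TIR4. TIR1 and TIR2 were closer to each other (r = 0.84) than to DAN4 (0.58 and 0.48). DAN1 and DAN4 are next to each other in the R64 annotation, and TIR4 and TIR2 are too, with pooled SPT3 differences of -3.75 and -1.64 for the first pair and -1.76 and -0.33 for the second. AUS1, a sterol importer of anaerobic cells and the next gene beyond TIR2, had a pooled difference of -0.91 ± 0.38 (blocked adjusted p = 0.189).

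The 5 genes whose profile was most like the mean standardised profile of the 6, by Pearson's r over the 8 arrays, were YMR317W (0.97), ATG45 (0.95), MAL11 (0.94), FRE2 (0.93) and UTR2 (0.93). YMR317W had signals of 16.0 and 18.1 in spt3, 21.6 and 14.6 for the double mutant, 74.2 and 14.7 in not1-2 and 54.6 and 88.7 in wild type. The profile it was matched to holds the split of the not1-2 arrays, so its own split there is part of the match. UTR2, which encodes an enzyme that links chitin to glucan in the wall, had 152 and 204 in spt3, 179 and 179 for the double mutant, 384 and 296 in not1-2 and 568 and 849 in wild type. The 5 genes were chosen for a profile that is low without SPT3. Their SPT3 differences therefore describe the match and are given without p-values. In the pooled comparison UTR2 was at -1.45, FRE2, a ferric reductase gene, at -1.17 and YMR317W at -1.46. No FRE2 signal exceeded 17.2, and MFA2 read 7.44 to 18.0 in the mutants, so FRE2 is not shown to be above background. Nor are the YMR317W signals of 16.0 in spt3, 14.6 in the double mutant and 14.7 in not1-2.

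The known regulators of the DAN and TIR genes were read next, with all 10 of the listed genes tested. None of the genes in this and the following lists passed without the block in any comparison, so each call below is from the blocked fit. UPC2, the activator, gave 11.2 and 24.9 in spt3 and signals of 10.5 and 17.8 for the double mutant, against 26.0 and 37.0 in not1-2 and 25.7 and 30.3 in wild type. It did not overlap between the strains without and with SPT3 and fell by 0.96 ± 0.23 (blocked SE, adjusted p = 0.0438) in the pooled comparison; without the block its adjusted p was 0.425. Its 11.2 in spt3 and both double-mutant signals lay within the 7.44 to 18.0 that MFA2 read in the mutants, so they are not shown to be above background. UPC2 was the only regulator that passed in any of the 7 comparisons, and 1 call among 10 genes is near the 5.18% of all probe sets called lower in the pooled one. TUP1, the corepressor, differed by 1.04 ± 0.32 (blocked adjusted p = 0.0970), HAP1, the heme-responsive activator, by -0.66 ± 0.23 (0.126) and ROX1, the hypoxic repressor, by 0.71. MOT3, a repressor, was at -0.31, CYC8 at 0.43, ECM22, a sterol regulator related to Upc2, at -0.36, and HDA1, RPD3 and SUT1 between -0.10 and 0.13. The 10 had a pooled median of -0.05, close to the 0.01 of all probe sets.

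**Figure D4:**
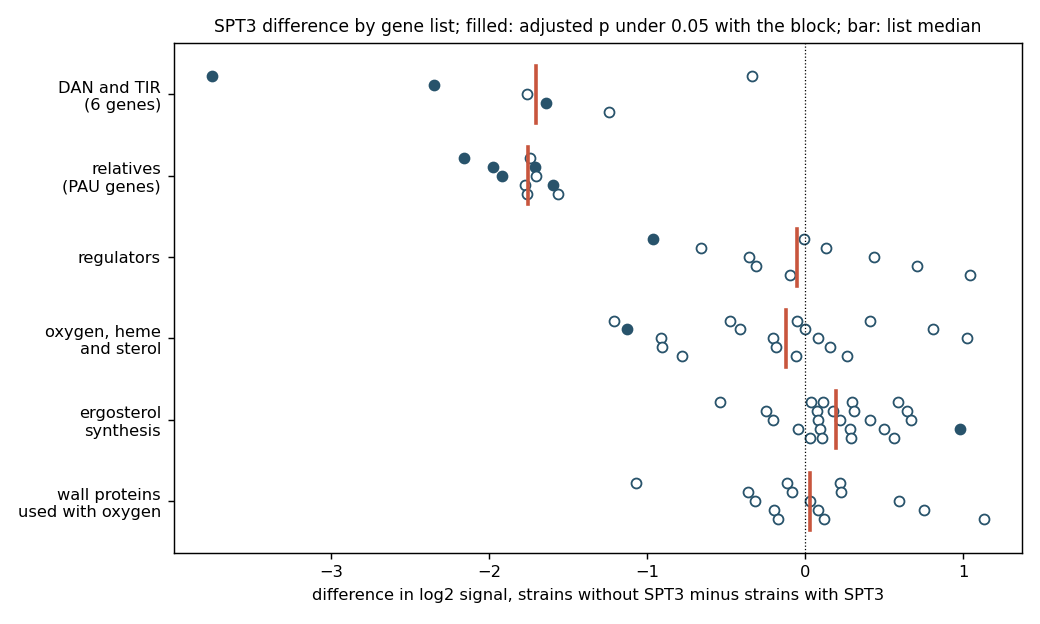
Difference in mean log2 signal between the 4 arrays without and the 4 arrays with SPT3, one point per gene, for the 6 DAN and TIR genes and 5 related lists; filled points passed at an adjusted p under 0.05 with the block and bars mark list medians. The DAN and TIR genes and their PAU relatives have medians of -1.70 and -1.75, and the other lists lie between -0.12 and 0.20.

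The seripauperins, the PAU genes, are short relatives of the DAN and TIR proteins that are also made without oxygen. Of 24 listed genes with a current symbol, 10 had a probe set of their own, and since PAU genes are near-identical in sequence their probe sets may share signal. All 10 were at lower values in the strains without SPT3, between -1.56 and -2.16, with list medians of -2.58 on replicate 1 and -0.97 on replicate 2. With the block 5 passed, beside 5.18% of all probe sets called lower, among them PAU3 (-2.16 ± 0.49, adjusted p = 0.0347), PAU7 (-1.97 ± 0.42, 0.0266) and PAU23 (-1.71 ± 0.32, 0.0165). PAU7 had signals of 13.7 and 14.3 in spt3 and 12.4 and 17.4 in the double mutant. PAU3 had 16.95 and 17.3 in spt3, and PAU17 had 13.0 on double-mutant replicate 2. All these lay within the 7.44 to 18.0 that MFA2 read in the mutants, so they are not shown to be above background. In the double mutant against not1-2 PAU7 passed (-2.81 ± 0.59, adjusted p = 0.0482), 1 of 10 beside 2.07% of all probe sets. No PAU gene passed against wild type in any mutant. In spt3 PAU23 was at -1.42 ± 0.45 and PAU3 at -1.91 ± 0.69 (blocked adjusted p = 0.171 and 0.207), in the double mutant PAU17 was at -1.75 and PAU23 at -1.31, and in not1-2 PAU7 was at 1.75 and PAU15 at 1.13.

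The not1-2 arrays also lay apart in these relatives, a difference between the gene lists that was not tested. All 10 PAU genes were higher on not1-2 replicate 1, by 4.25-fold to 18.2-fold with a median of 7.43-fold, against a median of 3.68-fold for the 6 genes and 1.07-fold for all probe sets. Relative to wild type, the PAU genes had a median of 2.03 on replicate 1 and -0.30 on replicate 2. DAN1 and TIR3 were at 0.82 and 0.27 on replicate 1.

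Genes that answer to oxygen, heme or sterol had a median near that of all probe sets. Of 18 tested, 7 lay higher and 11 lower in the pooled SPT3 comparison, with a median of -0.12, and 1 passed, a share near the 5.18% of all probe sets called lower. It was PDR11, a sterol importer gene under Upc2, which fell by 1.13 ± 0.26 (blocked SE, adjusted p = 0.0393). Its 4 arrays without SPT3 lay below the 4 with it, with 19.0 and 13.8 in spt3 against 31.4 and 27.2 in wild type. ANB1, the hypoxic translation factor gene, did not pass: it was at 252 and 616 in spt3, 1404 and 302 for the double mutant, 1149 and 104 in not1-2 and 4347 and 1581 in wild type. Against wild type ANB1 was at -2.92 ± 0.85 for not1-2 (blocked adjusted p = 0.138) and at -2.73 ± 0.85 for spt3 (0.166). HEM13, which encodes a heme synthesis enzyme induced without oxygen, was at -1.32 ± 0.43 in spt3 (blocked adjusted p = 0.183). In not1-2 COX5B, the hypoxic form of a cytochrome oxidase subunit, was at 1.34 ± 0.35 (blocked adjusted p = 0.0958). Its 11.6 on wild-type replicate 2 lay within the same MFA2 range. In the double mutant HES1 was at -1.74 ± 0.59 and PDR11 at -0.98 ± 0.37 against wild type, and PDR11 at -1.41 ± 0.37 against not1-2 (blocked adjusted p = 0.0807). HES1 had signals of only 2.32 and 3.02 in the double mutant and 8.78 and 8.84 in wild type. None of these is shown to be above background.

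Ergosterol synthesis, which needs oxygen, had a pooled SPT3 median of 0.20 over 24 genes, of which 20 lay higher. The list median was 0.31 on replicate 1 and 0.02 on replicate 2. MVD1, a mevalonate pathway enzyme, rose by 0.98 ± 0.24 (blocked SE, adjusted p = 0.0450), 1 of 24 beside 0.824% of all probe sets called higher. In not1-2 against wild type ERG2, a sterol isomerase gene, fell by 0.97 ± 0.18 (adjusted p = 0.0378), beside 0.951% called lower, and 18 of the 24 lay lower, with a median of -0.25. In spt3 ERG28 was at -1.11 and MVD1 at 0.87, and in the double mutant at -0.97 and 0.73, with no member past the test.

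The wall mannoproteins made with oxygen had a median near 0. Their pooled SPT3 median was 0.03 over 15 genes, with 8 higher, 7 lower and none past the test; YGP1 was at 1.13 ± 0.30 and EGT2 at -1.07 ± 0.32 (blocked adjusted p = 0.0639 and 0.0844). CWP1 had signals of 1519 and 877 in spt3 and 903 and 1179 in wild type, which overlapped. CWP2 was at -0.40 ± 0.15 in spt3 and -0.53 ± 0.15 in not1-2 (blocked adjusted p = 0.222 and 0.124), and TIP1, the gene for which the TIR family is named, at -0.39 ± 0.18 in spt3 (0.297). PIR3, the one gene of this list that passed in any comparison, rose by 4.21 ± 0.57 in not1-2 against wild type (blocked adjusted p = 0.0123), 1 of 15 beside 1.04% of all probe sets called higher.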

How the data were processed

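RNA was measured on 8 Affymetrix yeast arrays. PolyA RNA was extracted with acid phenol and biotin-labelled, per the labels' protocols. Each deposited value is a linear signal intensity; every array has a 2% trimmed mean near 100.1, and no source used here names the software. Each array was centred on its median (medians differed by 0.419, log2), signals under the 10th percentile (1.72) were raised to it before taking log2. Probe sets whose highest strain mean exceeded the 25th percentile (6.99) were kept, with the brightest per gene: 7043, all 6 members among them. Symbols follow assembly R64 by gene identifier.

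Strains were compared with limma 3.58.1 (R 4.3.3) over all 8 arrays, with a trend in intensity and with p adjusted by Benjamini-Hochberg across 7043 probe sets, called at 0.05. The labels do not say that replicates were separate cultures, so p-values may measure technical spread. Deviations of same-numbered arrays correlated in all 6 strain pairs (r from 0.188 to 0.739), so the blocked fit treats them as paired. The labels name no batch, and the part of RNA quality in these correlations was not tested. The code of the fits was checked on simulated data, which does not test how well the fits suit these arrays. Named genes were the 6 members, the strain checks, the 5 genes most alike, and list members that passed or had the smallest p; AUS1, CWP1, CWP2, TIP1 and the regulators that did not pass were added after their values were seen. The members, lists and tests were chosen with earlier results of these data known. The promoter motifs planned were not searched, and no sequences were used here. Alternatives changed the scaling, floor, filter, trend, probe sets, arrays and pairing; the ACT1 covariate was added after seeing the data.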

Additional observations from a re-analysis of the deposited data

How the results depend on the processing

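The 6 genes were refitted under other scalings, floors, filters, a constant prior variance, every probe set of a gene, the 2 strains alone, the replicate block and with each array left out. Without the block limma called none of the 6 in any comparison, and with the replicate block it called 2 in spt3 against wild type, 3 in the double mutant against not1-2 and 3 in the pooled SPT3 comparison. The block changed no other count. With quantile normalization beside the block the counts were 0, 2 and 3, and with the ACT1 ratio beside it 0 in each; the cause was not tested. In a fit of the 2 strains alone DAN1 was called in spt3 against wild type, a count of 1.

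With each array left out, with and without the replicate block, the count of members called ranged from 0 to 4 in spt3 against wild type and in the pooled comparison, and from 0 to 3 in the double mutant against wild type and against not1-2. No left-out array brought a call in not1-2 against wild type, in the double mutant against spt3 or in the interaction. Directions turned only in values that passed no test.
In not1-2 against wild type the ranges were -2.20 to 0.64 for DAN1, -0.45 to 0.19 for DAN4, -1.17 to 0.52 for TIR3 and -2.19 to 0.37 for TIR4. In the double mutant against not1-2 they were -1.61 to 1.31 for TIR1, -0.43 to 0.45 for TIR2 and -2.46 to 0.10 for TIR4. In the double mutant against spt3 they were -0.094 to 1.07 for DAN1, -0.43 to 0.26 for DAN4, -0.79 to 1.99 for TIR1, -0.24 to 0.15 for TIR2 and -0.18 to 0.48 for TIR3. The interaction ranged from -0.15 to 2.69 for DAN1, -0.30 to 0.39 for DAN4, -0.37 to 1.32 for TIR3 and -0.12 to 2.44 for TIR4.

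Other turned values were small. Without centring DAN4 was at 0.0058 in not1-2 against wild type, TIR2 at 0.016 in the double mutant against spt3 and the DAN4 interaction at -0.031. With quantile normalization, with and without the block, TIR2 was at 0.021 in the double mutant against spt3. With the ACT1 ratio beside the block, an alternative chosen after seeing the data, the double mutant against not1-2 was at 0.14 for TIR1 and -0.074 for TIR2, TIR2 in the double mutant against spt3 was at 0.0060, and the DAN4 interaction was at -0.047. Without centring the median of all probe sets in the double mutant against wild type was 0.12, against -0.05 with it. With 2 arrays per strain, their number limits the precision of every value, and wild type differs from the mutants in mating-type gene signal as well.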
